A study of Mus musculus with 8 samples.

Results

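Muscle of the CaV1.1 knockout (KO, dysgenic) diaphragm at E14.5 was compared with muscle of control diaphragms of the same age. Muscle spots were chosen on measured values. A spot had to hold at least 1000 UMIs (distinct captured transcripts) and a mean of ln(1 + UMIs per 10000) over 9 genes of the fiber (*Acta1*, *Actn2*, *Mylpf*, *Myl1* and *Tnnt3* of the filaments and Z-disc, the giant proteins *Ttn* and *Neb*, the intermediate filament *Des* and the calcium release channel *Ryr1*) above the Otsu cut of its section, which splits the spots into a high and a low class. This gave 491 muscle spots of 904 under tissue in the KO section, and 549, 571 and 581 in controls 1, 2 and 3, of 3264 spots under tissue in these 4 sections and 12771 in all 8 sections of the series. The UMIs of the muscle spots were summed per section, so that each genotype was compared over sections and not over spots.

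Gene expression was measured with Visium probe-based spatial transcriptomics in fixed sections of embryonic mouse diaphragm. The KO group at E14.5 was 1 section labelled CaV1.1 -/-, homozygous for the *dysgenic* allele of *Cacna1s*, which is carried in every cell of the embryo. The 3 E14.5 sections labelled control came from embryos with at least 1 working allele of both *Cacna1s* and *β-catenin*. Per the study's methods such embryos may have been heterozygous for the *dysgenic* allele, and some crosses also carried floxed *β-catenin* and Cre driven by the skeletal actin (HSA) promoter. At E18.5 there were 2 control sections, 1 CaV1.1 -/- section and 1 section with *β-catenin* deleted in muscle, which entered the fit only. The labels give no litter or sex, and the KO diaphragm is thinner and narrower than that of controls and therefore hard to section whole.

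CaV1.1, encoded by *Cacna1s*, is the voltage-sensing calcium channel of skeletal muscle. In the transverse tubule it senses depolarization and opens the ryanodine receptor of the sarcoplasmic reticulum, which releases the calcium that starts contraction. Dysgenic muscle is innervated but does not contract. The diaphragm is the muscle of breathing, and its fibers are still forming by fusion of myoblasts at E14.5.

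The muscle spots held 20665676, 29459053 and 12835167 UMIs in controls 1, 2 and 3 and 20762765 in the KO, so control 3 was the shallowest section. The KO section lay in 2 pieces with 412 and 78 muscle spots, whereas the spots of each control formed 1 piece apart from a few stray spots. Y-linked transcripts were at most 0.2 CPM (UMIs of a gene per 1000000 UMIs of the muscle spots, scaled by TMM as all levels below) in control 1 and the KO, and 189.4 and 203.6 CPM in controls 2 and 3. Summed erythrocyte genes ran from 113.1 CPM in control 1 to 3030.7 CPM in control 2, with 1507.3 CPM in the KO, and hepatocyte genes from 10.9 to 735.6 CPM with 358.5 CPM in the KO. Adrenal cortex genes reached 36.1 CPM in control 1 and at most 4.5 CPM elsewhere. The lung genes *Sftpc* and *Nkx2-1* had 29 and 23 UMIs in KO muscle spots, and at most 1 UMI in any control. The part of these tissues and of sex in the results below was not tested. For the 2 pieces, counts from only the largest piece of each section are given in the closing section.

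The 9 genes that chose the spots took 2.74%, 2.16% and 2.29% of the muscle UMIs in controls 1, 2 and 3, and 1.62% in the KO. *Acta1*, skeletal α-actin, had 5728, 4500.5 and 4661 CPM in the controls and 2699 CPM in the KO before scaling. These values are a description, since they chose the spots. The cut itself was lower in the KO section, at 1.85 against 2.54, 2.19 and 2.27. The KO spots next to it scored 1.850 inside and 1.847 outside, and 56 KO spots lay within 0.1 of the cut against 82, 55 and 25 in the controls. Muscle spots made up 55.0% of the kept KO spots, below 67.5%, 67.8% and 85.1% in the controls. Markers of 12 skeletal muscle genes summed to 15328.6 CPM in the KO and to 23803.1, 17401.0 and 17828.3 CPM in the controls, so the KO spots expressed muscle genes, with a sum below all 3 controls. A lower sum can come from fewer muscle cells per spot or from less RNA per muscle cell, and these cannot be told apart in spots that hold several cells.

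*Cacna1s*, the mutated gene (GRCm38, chr1:136052806-136119822), had 16.5, 14.95 and 18.4 CPM in controls 1, 2 and 3 and 13.4 CPM in the KO. The KO was below all 3 controls, but the difference of -0.30 ± 0.14 (log2, SE, KO minus control) did not pass the test (adjusted p = 0.34, edgeR) and was 0.25 with the 9-gene scaling described next. The *dysgenic* allele shifts the reading frame and does not remove the gene, so probes against its transcript do not check the genotype.

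Of 14823 genes tested with edgeR's quasi-likelihood F test, 79 were higher and 229 lower in KO muscle at an adjusted p under 0.05. These 308 genes are 2.08% of those tested, 0.533% for the higher and 1.54% for the lower, and every one lay outside the range of the 3 controls. By that range alone the KO was above all 3 controls for 34% of all genes and below them for 30.7%. Changes of at least 1 on the log2 scale were reached by 38 of the higher and 170 of the lower genes, and the median difference over all genes was 0.003. When the libraries were scaled to the 9 muscle genes in place of all genes, the median rose to 0.56, and 4783 genes were higher and 155 lower. The share of higher genes went from 25.7% to 96.9%. That scaling rests on the genes that chose the spots and moves all genes up together. Higher calls could therefore hardly be lost with it, and a higher call made with it is no added support. All 79 higher calls and 116 of the 229 lower calls were also made with that scaling. Named calls lost with it were those of *Stim1*, *Lama5*, *Kcnj11*, *Ndn*, *Cdh13*, *Ppargc1a*, *Tnni2*, *Fhl1*, *Jag1*, *Meox2*, *Col18a1*, *Map3k7cl*, *Fos* and *Jund*. With that scaling the medians of Z-disc (-0.29), light chain (-0.11), endothelial (-0.16) and tendon genes (-0.01) stayed below 0, and those of the other muscle lists below were above 0. Counts of calls in the lists moved with this shift of all genes, of which 4783 of 14823 were higher and 155 lower. A higher count near that share says nothing about its list. The counts were 5 higher and 6 lower for creatine, glycogen and glycolysis, 2 and 1 for excitation-contraction coupling, 5 and 0 for calcium storage and 4 and 1 for thin filament. They were 6 and 3 for channels and pumps, 6 and 4 for endplate and 5 and 4 for myotendinous genes. For light chain and thick filament genes they were 4 and 5, and for the study's synapse and axon genes 9 and 3. Differences below are relative to all RNA of the muscle spots. With 1 KO section the spread comes from the other groups with more than 1 section, and the calls rest much on control 3. Without it 12 genes were higher and 53 lower, without control 2 22 and 188, and without control 1 53 and 213. Named calls that were lost without control 3 are marked as lost, most with their p without it.

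**Figure D1:**
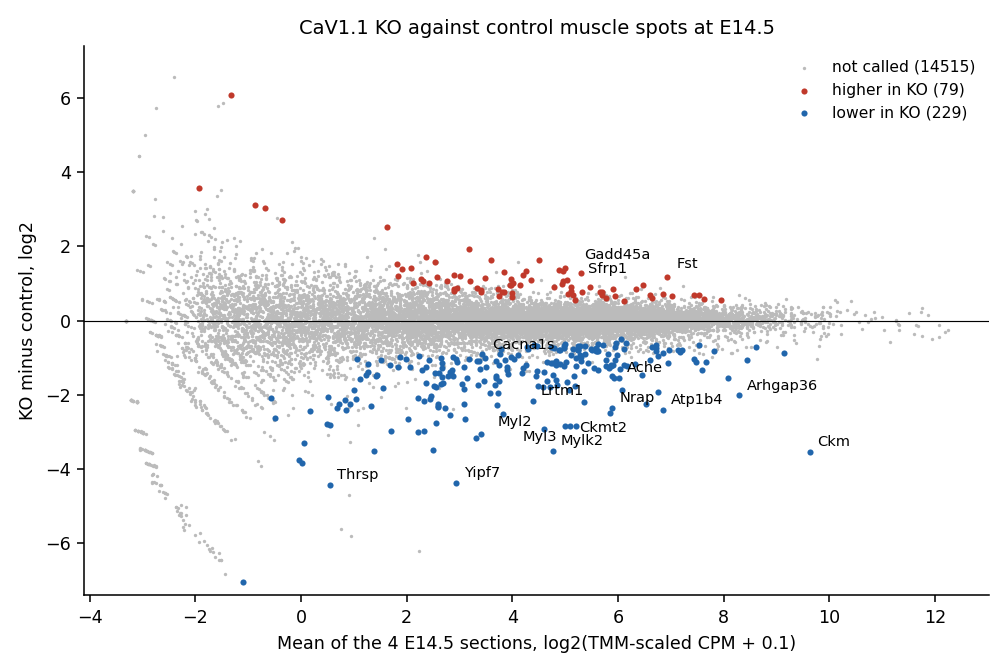
Difference between CaV1.1 KO and control muscle at E14.5 (y axis, log2) against the mean level of the 4 sections (x axis, log2 of TMM-scaled CPM + 0.1), 1 point per gene tested. Red points are the 79 genes higher in KO, with *Sftpc* at 6.07, and blue points the 229 lower genes, with *Ckm* at -3.54.

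Genes of energy supply and of the contractile apparatus were among those that fell most. The sequence upstream of the start site is shown for *Myl2*, *Ckm* and *Mlip*, because these genes fell together. With *Mylk2*, for which no start window was available, they have the lowest adjusted p of the 10 most changed lower genes. The 250 bases before the RefSeq start (GRCm38.p6) are printed 5′ to 3′ on the gene's strand, with capitals marking CAGCTG, an E-box of the kind bound by myogenic factors, searched on both strands. They lie at chr5:122092474-122092723 (+) for *Myl2*, chr7:19410844-19411093 (+) for *Ckm* and chr9:77347871-77348120 (-) for *Mlip*. The table of starts lists a further window each for *Myl2* and *Mlip*, and the *Mlip* gene itself extends upstream of the start shown.
Myl2: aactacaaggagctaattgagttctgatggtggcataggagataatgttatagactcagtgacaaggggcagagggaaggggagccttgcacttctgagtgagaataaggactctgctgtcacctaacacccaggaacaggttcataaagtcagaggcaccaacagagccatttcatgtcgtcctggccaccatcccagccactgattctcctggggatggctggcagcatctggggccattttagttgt
Ckm: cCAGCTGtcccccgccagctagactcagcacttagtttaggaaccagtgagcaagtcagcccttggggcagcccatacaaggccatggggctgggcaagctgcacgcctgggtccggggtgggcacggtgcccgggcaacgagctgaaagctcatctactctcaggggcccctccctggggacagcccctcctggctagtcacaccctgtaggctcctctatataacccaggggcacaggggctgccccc
Mlip: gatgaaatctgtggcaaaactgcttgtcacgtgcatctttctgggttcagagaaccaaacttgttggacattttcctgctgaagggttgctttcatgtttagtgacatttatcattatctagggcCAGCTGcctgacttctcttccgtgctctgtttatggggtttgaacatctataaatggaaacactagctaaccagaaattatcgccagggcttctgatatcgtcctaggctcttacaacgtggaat
CAGCTG stands 249 bases before the start of *Ckm* and 125 bases before that of *Mlip*, and these letters are not in the window shown for *Myl2*. The other *Myl2* window (chr5:122092939-122093188) holds them 130 bases before its start. Of 32851 mouse windows of this length 13.0% hold CAGCTG, and 66.2% hold the wider E-box CANNTG, which includes it. A match is a description of letters and not a binding site.

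*Ckm*, muscle creatine kinase, which buffers ATP in the fiber, had 1309.7, 869 and 898 CPM in controls 1, 2 and 3 and 88.4 CPM in the KO. The change was -3.54 ± 0.32 on the log2 scale (adjusted p = 0.00577), and no control came near the KO level. The mitochondrial partner *Ckmt2* fell as well, from 58.5, 35.7 and 35.5 CPM to 6.06 CPM (-2.84 ± 0.35, adjusted p = 0.0126). Of 25 measured genes of creatine, glycogen and glycolysis none was higher and 6 were lower, with a list median of -0.40. The other 4 were *Fbp2*, muscle fructose bisphosphatase (-2.76), *Phkg1*, the catalytic subunit of muscle phosphorylase kinase (-2.65), *Ampd1*, muscle AMP deaminase (-1.87), and *Ppp1r3c*, a glycogen-targeting subunit of protein phosphatase 1 (-1.37). *Ampd1* stood at 103, 67.0 and 77.5 CPM in the controls and 22.6 CPM in the KO. *Phkg1* stood at 6.29, 4.34 and 4.52 CPM in the controls and 0.797 CPM in the KO. Without control 3 the calls of *Fbp2* (adjusted p = 0.108), *Ampd1* and *Ppp1r3c* (both 0.0735) were lost. The creatine kinases and *Phkg1* kept theirs whichever control was left out.

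**Figure D2:**
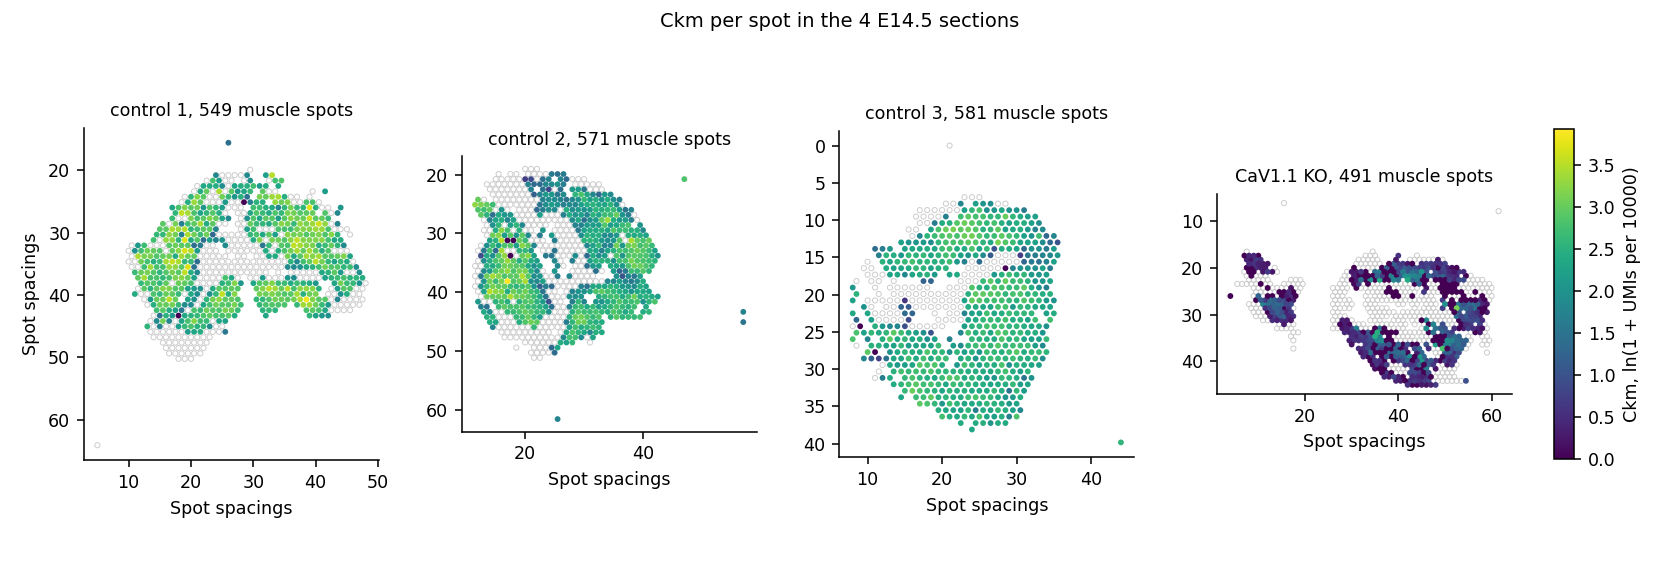
*Ckm* per spot (color, ln of 1 + UMIs per 10000) in the 4 E14.5 sections, with axes in spot spacings. Filled spots are muscle spots and open gray spots are the other spots. The KO section, in 2 pieces, is dark over most of its 491 muscle spots, and the 3 controls are green to yellow.

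In the smaller KO piece *Ckm* had 79.1 CPM and in the larger piece 113 CPM before scaling, so both pieces were low. *Ckm* was also low outside muscle spots, with 335, 202 and 199 CPM in the controls and 16.5 CPM in the KO.

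Genes of mitochondrial respiration and fat use had 3 of 31 measured members lower and none higher, with a median of -0.15. With scaling to the 9 muscle genes 10 were higher and 2 lower, where 4783 of all 14823 genes were higher and 155 lower. *Cpt1b*, which loads fatty acids for entry into muscle mitochondria, had 18.2, 10.6 and 11.7 CPM in controls 1, 2 and 3 and 1.63 CPM in the KO (-3.04 ± 0.38, adjusted p = 0.0126). *Cox7a1*, the muscle form of a cytochrome oxidase subunit, had 19.4, 15.5 and 13.4 CPM against 5.26 CPM. *Ppargc1a*, a coactivator of mitochondrial genes, had 13.7, 10.8 and 9.86 CPM against 5.38 CPM (-1.10, adjusted p = 0.0423). *Perm1*, a muscle regulator of that pathway outside the list, had 7.73, 4.42 and 5.34 CPM against 0.717 CPM (adjusted p = 0.0203). The calls of *Cpt1b* (0.0501), *Ppargc1a* (0.0792) and *Perm1* (0.0735) were lost without control 3, and that of *Ppargc1a* also without control 2 (0.0729). The 75 measured respiratory chain genes had 2 lower members and a median of -0.03, so the bulk of that machinery lay near the median of all genes.

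Light chains of slow fibers and the kinase of light chains fell together. *Myl2* had 35.3, 30.2 and 27.4 CPM in controls 1, 2 and 3 and 4.06 CPM in the KO (-2.93 ± 0.24, adjusted p = 0.00553). *Myl3* had 50.6, 34.1 and 37.5 CPM in the controls and 5.70 CPM in the KO (-2.84 ± 0.32, adjusted p = 0.0102). *Mylk2*, the kinase of skeletal myosin light chains, fell from 45.5, 29.5 and 30.5 CPM to 3.07 CPM (-3.52 ± 0.33). These 3 genes were called in each of 16 other ways of processing that were tried. In the list of light chains and thick filament 5 of 15 members were lower and none higher, the others being *Hspb7*, a small heat shock protein of muscle (-1.94), and *Mybpc2*, fast myosin-binding protein C (-1.47), whose calls were lost without control 3 (0.0617 and 0.113), that of *Mybpc2* also without control 2 (0.0828).

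None of 8 measured myosin heavy chains passed the test, although 7 were below all 3 controls. Embryonic *Myh3* had 5813, 4519 and 4320.0 CPM in the controls and 3968 CPM in the KO (-0.30 ± 0.21, adjusted p = 0.543). Slow *Myh7* had 1122, 983 and 926 CPM against 799.9 CPM (-0.34 ± 0.20, adjusted p = 0.467). The adult fast forms *Myh2* and *Myh4* were below the controls without passing: *Myh2* had 18, 23 and 8 UMIs in the controls and 4 in the KO, and *Myh4* had 32.7, 29.1 and 23.5 CPM against 13.1 CPM (-1.13, adjusted p = 0.0876). The adult fast *Myh1* was above the controls with 162 CPM against 129, 94.4 and 113 CPM (0.54, adjusted p = 0.333). With scaling to the 9 muscle genes *Myh3* (0.28) and *Myh7* (0.23) were above control. The slow light chains were far below control under either scaling.

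Thin filament genes had 2 lower and no higher members of 15. *Lmod2*, a leiomodin that lengthens thin filaments, had 90.0, 66.9 and 59.4 CPM in the controls and 12.9 CPM in the KO (-2.48 ± 0.26, adjusted p = 0.00873). *Tnni2*, fast troponin I, had 129, 97.2 and 111 CPM in the controls and 53.6 CPM in the KO (-1.07, adjusted p = 0.0421, and 0.14 without control 3). The slow troponins did not pass the test. *Tnnc1* had 1187, 927 and 953 CPM in the controls and 1445 CPM in the KO (0.50 ± 0.18, adjusted p = 0.221), *Tnni1* differed by -0.25 (0.623), *Tnnt1* lay within the controls, and fast *Tnnc2* differed by -0.57 (0.243).

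The Z-disc and stretch-response list was the one with the most lower genes, 9 of 25, with none higher and a median of -0.84. Of its members 23 lay below all 3 controls, 1 above and 1 within, where 30.7% of all genes lay below. *Nrap*, an anchor of new myofibrils, had 95.6, 62.6 and 64.6 CPM in the controls and 14.54 CPM in the KO (-2.35 ± 0.28, adjusted p = 0.0117). *Myoz1*, which binds calcineurin at the Z-disc, had 148, 89.1 and 107 CPM against 24.2 CPM (-2.25). *Csrp3*, muscle LIM protein, had 421, 289 and 261 CPM against 112 CPM (-1.54). *Ankrd2*, a stretch-induced ankyrin repeat protein, was low in all sections, with 6.71, 4.72 and 5.34 CPM against 1.31 CPM (-2.08). *Myoz3*, *Cmya5*, *Ldb3*, *Actn3* and *Fhl1* also passed the test, with changes from -2.11 to -1.11. The related stretch genes *Tcap* (-1.12, adjusted p = 0.0755) and *Ankrd1* (-0.89, adjusted p = 0.0937) were below all controls but did not pass. Of the 9 calls only that of *Nrap* remained without control 3, where the adjusted p of the others ran from 0.0501 (*Cmya5*) to 0.113 (*Fhl1*), and *Csrp3* also lost its call without control 2 (0.0618). *Mlip*, a muscle lamin-interacting protein outside these lists, fell from 15.4, 10.3 and 12.4 CPM to 1.39 CPM (-3.17 ± 0.30, adjusted p = 0.00658).

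**Figure D3:**
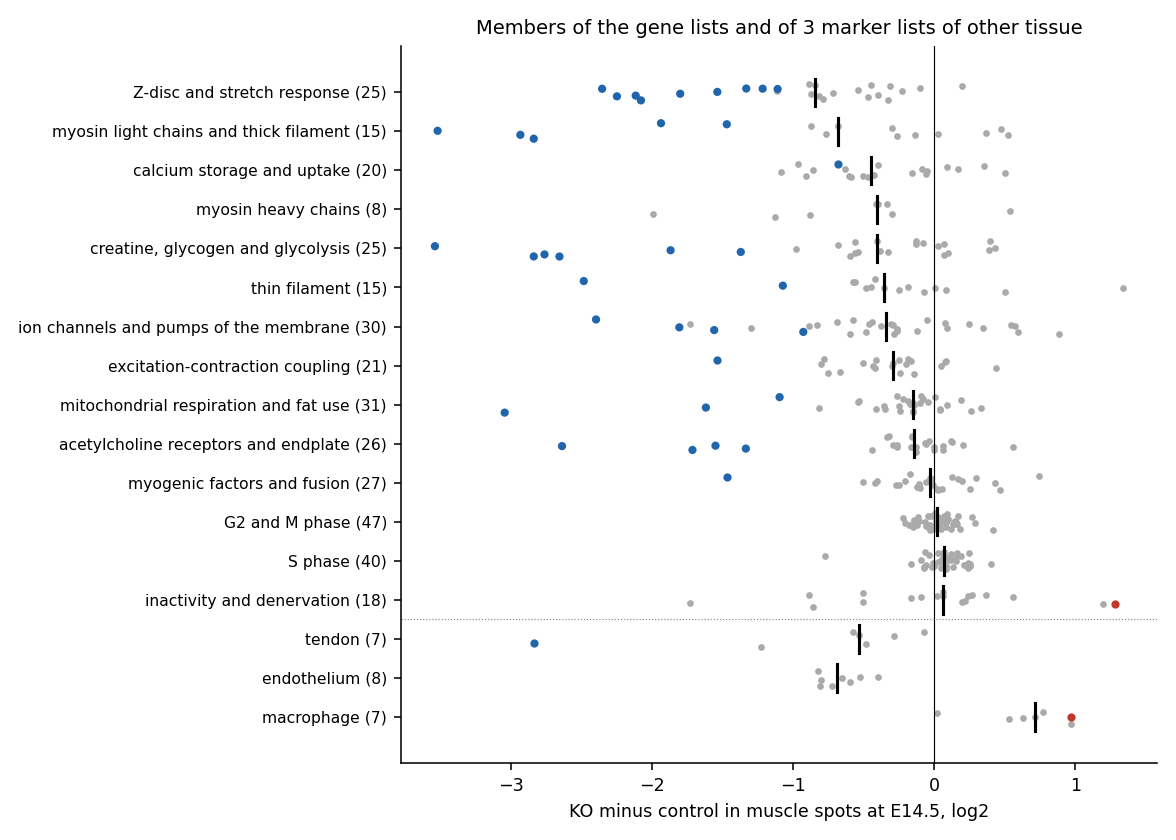
Difference between CaV1.1 KO and control muscle at E14.5 (x axis, log2) for every measured member of 14 gene lists and, below the dotted line, 3 marker lists of other tissue. Blue points are called lower, red points called higher, gray points not called, bars are list medians and the number of members is in parentheses. The medians run from -0.84 for Z-disc genes to 0.71 for macrophage markers.

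Few of the genes around CaV1.1 itself were called, with medians of -0.29 for excitation-contraction coupling and -0.45 for calcium storage and uptake. Of 21 genes of excitation-contraction coupling, 14 were below all 3 controls, where 30.7% of all genes lay below. The only call was *Sypl2*, mitsugumin 29 of the triad junction, with 92.6, 57.8 and 66.1 CPM in the controls and 24.9 CPM in the KO (-1.54, adjusted p = 0.0368, and 0.113 without control 3). *Stac3*, which escorts CaV1.1 to the membrane, had 80.1, 59.5 and 62.1 CPM against 58.7 CPM (-0.20, adjusted p = 0.618). *Jph2*, which ties the membranes of the triad together, differed by -0.29 (0.304), *Ryr3* by -0.80 (0.0503) and *Jsrp1* by -0.78 (0.0863). In the list of calcium storage and uptake 12 of 20 lay below all 3 controls. None was called higher and 1 lower. That was *Stim1*, the sensor of empty calcium stores, with 44.4, 40.6 and 43.4 CPM in the controls and 26.7 CPM in the KO (-0.68 ± 0.11, adjusted p = 0.03), a call lost without control 3 (0.113) or 2 (0.0669). *Casq1*, which binds calcium in the store, was below the controls at 117 against 290.0, 187 and 184 CPM without passing (-0.91, adjusted p = 0.163).

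Of 30 channels and pumps of the membrane 4 were lower and none higher. *Atp1b4*, a relative of the sodium pump's β subunits found in muscle, went from 175, 122 and 138 CPM to 27.5 CPM (-2.40 ± 0.24, adjusted p = 0.00822). *Kcnc4*, a voltage-gated potassium channel, went from 3.67, 3.67 and 3.01 CPM to 0.996 CPM (-1.81). *Kcnn2*, a calcium-activated potassium channel, fell by 1.56 and *Kcnj11*, the pore of the ATP-sensitive channel, by 0.93 on the log2 scale, and both calls were lost without control 3 (0.0773 and 0.125). Of 22 genes of the dystrophin complex and its partners 17 were below all controls and 1 was called, the laminin chain *Lama5*, with 71.9, 64.4 and 67.5 CPM against 44.8 CPM (-0.60, adjusted p = 0.0377), a call lost without control 1 (0.0612), 2 (0.0514) or 3 (0.119).

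The factors that direct muscle formation moved little. Of 27 myogenic and fusion genes 1 was lower, *Myf6* (MRF4), the factor of late differentiation, with 119, 87.6 and 105 CPM in the controls and 37.5 CPM in the KO (-1.47 ± 0.20, adjusted p = 0.0162, and 0.0739 without control 3). *Myog* had 796, 614 and 689 CPM in the controls and 804 CPM in the KO (0.20, adjusted p = 0.598). *Myf5* differed by 0.43 (0.278), and the fusion genes *Mymk* and *Mymx* lay within the controls. *Pax7*, of muscle progenitors, had 41.4, 40.1 and 42.1 CPM against 34.6 CPM (-0.25, adjusted p = 0.294). *Klf5* was above the controls at 107.5 against 73.3, 59.6 and 60.2 CPM without passing (0.74, adjusted p = 0.0565), and *Tead4* lay within them (-0.17). *Myf6* was thus the only one of these 27 genes called when scaled to all genes. With scaling to the 9 muscle genes 12 of the 27 were higher and 1 lower, with a median of 0.545. Of all 14823 genes 4783 were then higher, with a median of 0.556. Of 16 Notch and Id genes 1 was lower, the ligand *Jag1* (-0.78, adjusted p = 0.0351, 0.121 without control 3 and 0.0854 without control 2).

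No gene of S phase (40 measured) or of G2 and M phase (47) was called. Of the S phase genes 24 were above all 3 controls and 6 below, and of the G2 and M phase genes 15 and 10. Over all genes tested 34% were above and 30.7% below. *Mki67* had 414, 423 and 376 CPM in the controls and 427 CPM in the KO (0.08 ± 0.20, adjusted p = 0.891), and *Top2a* had 178, 187 and 182 CPM against 207 CPM (0.18 ± 0.15, adjusted p = 0.611). The list medians were 0.07 and 0.02, and with scaling to the 9 muscle genes 23 and 20 of these genes were higher. With that scaling 4783 of all 14823 genes were higher. Of 37 histone genes 27 were above all 3 controls and 2 below, with a median of 0.23 and no call.

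The endplate genes did not move as 1 group. *Ache*, acetylcholinesterase, had 80.7, 67.3 and 84.7 CPM in controls 1, 2 and 3 and 26.5 CPM in the KO (-1.55 ± 0.17, adjusted p = 0.00945). *Colq*, the collagen tail that anchors it, had 10.6, 8.50 and 10.4 CPM against 2.99 CPM (-1.71, adjusted p = 0.0171), and *Ufsp1*, the gene next to *Ache*, had 60.5, 47.2 and 67.1 CPM against 23.0 CPM (-1.33, adjusted p = 0.0217). Without control 3 *Ache* kept its call (0.0444) but *Colq* (0.072) and *Ufsp1* (0.0625) did not. The acetylcholine receptor subunits did not pass the test, and with scaling to the 9 muscle genes all 4 were above control: *Chrna1* had 227, 171 and 217 CPM in the controls and 214 CPM in the KO (0.06 ± 0.16, adjusted p = 0.899), *Chrnd* differed by -0.29 (0.463), *Chrng* by -0.16 (0.726) and *Chrnb1* by -0.44 (0.194). The adult subunit *Chrne* was hardly expressed, with 3 UMIs in the KO against 57 in the 3 controls together, a ratio of 0.16 (exact 95% interval 0.032 to 0.491, counting error only), and its call was lost without control 1 (0.0521) or 3 (0.0792). *Musk*, the kinase that clusters the receptors, was above all controls at 84.1 against 64.1, 47.8 and 59.9 CPM without passing the test (0.56 ± 0.16, adjusted p = 0.133). In all 4 of 26 endplate genes were lower and none higher.

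The study lists synapse and axon genes that it chose on these samples, so their count is not independent evidence. Of 20 measured, 5 were lower and 1 higher. *Lrtm1* had 30.1, 21.3 and 26.6 CPM in the controls and 5.74 CPM in the KO (-2.17 ± 0.23, adjusted p = 0.00822). *Ndn*, necdin, had 459, 385 and 353 CPM against 191 CPM (-1.06, adjusted p = 0.0478) and *Cdh13*, T-cadherin, 20.8, 15.8 and 16.7 CPM against 8.93 CPM (-0.99, adjusted p = 0.0368). The higher gene was *Col25a1*, a muscle collagen that motor axons need, with 46.7 CPM against 26.3, 29.1 and 29.8 CPM (0.72, adjusted p = 0.0368). Without control 3 *Lrtm1* kept its call and the calls of *Ndn* (0.106), *Cdh13* (0.106) and *Col25a1* (0.113) were lost, that of *Ndn* also without control 2 (0.0909), and that of *Col25a1* also without control 1 (0.0715) or 2 (0.0863). *Dysf* (-0.84, 0.127), *Map2k1* (0.22, 0.508) and *Prkar1a* (-0.32, 0.345) did not pass.

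Endplate genes still varied together over the KO muscle spots. The central spots of a section were those muscle spots, 15% of them, that scored highest on the mean of 8 endplate genes, and each gene's rate there was divided by its rate in the other muscle spots, with the gene left out of the score. The median ratio over the 8 genes was 1.99, 2.09 and 1.49 in controls 1, 2 and 3 and 1.72 in the KO, within the controls. *Chrna1* had ratios of 1.98, 2.07 and 1.57 in the controls and 1.76 in the KO. *Ache* had 2.83, 2.72 and 1.68 against 2.42, so it was low in the KO in level but not in its central ratio. *Lrtm1* had 1.31, 1.82 and 1.44 in the controls and 0.87 in the KO, and *Cdh13* 1.26, 1.53 and 1.46 against 1.01, so these were below all 3 controls in ratio as well. Their KO ratios rest on few UMIs, 28 central and 116 other ones for *Lrtm1* and 49 and 175 for *Cdh13*. Of muscle genes outside the score, *Myh3* had ratios of at most 1.13 in the 4 sections. *Ckm* had 1.19, 1.33 and 1.19 in the controls and 1.29 in the KO, close to the lowest endplate ratio in the KO, 1.37 for *Etv5*. Neither gene is evenly spread. At E14.5 the study found *Myh3* higher at the muscle periphery and *Ckm* lower there than in the center. The central spots were chosen on the score and not on position. A ratio above 1 follows from any variation that a gene shares with the score, muscle content per spot included. It does not show a place in the muscle. *Sema6b*, of the study's list and outside the score, had a ratio of 1.58 in the KO. These ratios are a description of 1 KO section with no test.

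At the other end of the fiber, 5 of 18 genes of the myotendinous junction were lower and none higher. *Thbs4*, a matrix protein of that junction, had 45.4, 62.0 and 45.5 CPM in controls 1, 2 and 3 and 11.1 CPM in the KO (-2.20 ± 0.24, adjusted p = 0.00875), and *Itga7*, a laminin receptor of muscle, had 75.9, 60.3 and 68.3 CPM against 29.5 CPM (-1.21, adjusted p = 0.0124, and 0.0604 without control 3). *Map3k7cl* fell by 1.22 on the log2 scale, a call lost without control 1 (0.059), 2 (0.0693) or 3 (0.0604). *Csrp3* and *Ankrd2*, given above, were the others. Markers of tendon moved with these genes. All 7 were below the controls with a median of -0.53, their sum was 357.3, 424.4 and 433.3 CPM against 281.0 CPM, and *Tnmd*, tenomodulin, the only 1 called, had 41.5, 45.5 and 53.2 CPM against 6.53 CPM (-2.83 ± 0.23, adjusted p = 0.00553). At E14.5 the study found *Thbs4* and *Tnc* more specific to the peripheral tendon, and *Tnmd* specific to the central tendon. Whether less tendon in the muscle spots accounts for any of the junction's change was not tested. Of 26 collagen and matrix genes 2 were lower. *Tnc*, tenascin-C, had 227, 277 and 201 CPM against 109 CPM (-1.11, adjusted p = 0.0335, and 0.0606 without control 3), and *Col18a1*, of basement membranes, fell by 0.82 on the log2 scale (adjusted p = 0.0217, and 0.0873 without control 3). *C1qtnf3*, a secreted collagen-domain protein, went from 70.8, 70.4 and 69.1 CPM to 25.1 CPM (-1.48 ± 0.10, adjusted p = 0.00553). *C1qtnf3* lies outside the lists and was chosen after its values were seen.

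Endothelial markers were all 8 below the controls, with a sum of 306.7, 431.8 and 337.9 CPM against 222.1 CPM and a median of -0.69, and none was called. Of 14 hypoxia genes none was called and the median was 0.10. Smooth muscle markers summed to 913.4, 699.0 and 750.8 CPM against 624.8 CPM, and *Cnn1*, calponin, was lower (-2.96, adjusted p = 0.02, and 0.0516 without control 3). Of 8 fibroblast markers 4 were above and 2 below all 3 controls, and of 7 Schwann cell markers 4 were above and none below, with no call in either list. The fibroblast sum was 11808.1, 13654.5 and 12635.9 CPM against 11539.3 CPM in the KO, below the controls, and the Schwann cell sum of 206.4 CPM lay within them.

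**Figure D4:**
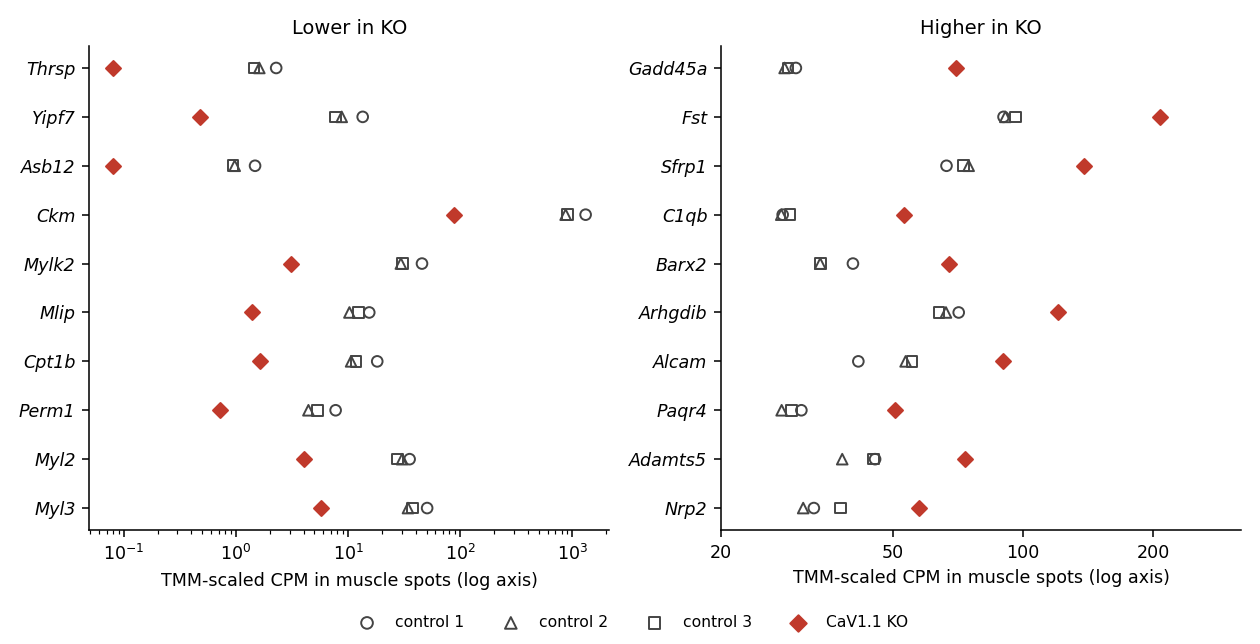
Level of the 10 most changed genes in each direction in muscle spots of the 4 E14.5 sections (x axis, TMM-scaled CPM, log axis), open symbols for the 3 controls and red diamonds for the CaV1.1 KO. The KO lies outside the controls for every gene, which was a condition of the choice, at 88.4 CPM for *Ckm* and at 207 CPM for *Fst*. The genes were chosen among those with 5 or more mean log2 CPM over the E14.5 and E18.5 sections.

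Among the 10 most changed genes in each direction shown here, those that rose did so by less. Some called genes left out of that choice rose by more, such as *Grhl2* (3.56) and the lung gene *Sftpc* (6.07). The call of *Grhl2* was lost whichever control was left out. *Gadd45a*, which responds to growth arrest and to loss of innervation, had 29.8, 28.1 and 28.6 CPM in controls 1, 2 and 3 and 70.0 CPM in the KO (1.28 ± 0.09, adjusted p = 0.00553), and it was called in all 16 other ways of processing. *Fst*, follistatin, which binds and blocks myostatin and activins, had 90.2, 91.1 and 96.1 CPM in the controls and 207 CPM in the KO (1.17 ± 0.12, adjusted p = 0.00822). Its target *Mstn*, myostatin, lay within the controls at 62.9 CPM against 69.3, 43.2 and 45.1 CPM (0.26, adjusted p = 0.659). *Fst* was the only call among 29 genes of growth factor signaling. *Gadd45a* was the only call among 18 genes of inactivity and denervation, 7 of which were above all controls and 5 below. With scaling to the 9 muscle genes 9 of the 18 were higher and none lower, where 4783 of all 14823 genes were higher.

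The other named higher genes were *Sfrp1*, a secreted antagonist of Wnt signals, with 66.5, 74.9 and 72.9 CPM in the controls and 139 CPM in the KO (0.96 ± 0.16), *Barx2*, a homeobox gene of muscle progenitors (0.90), *Arhgdib* (0.85), *Alcam*, a cell adhesion molecule (0.85), *Paqr4* (0.79), *Adamts5*, a matrix protease (0.78), and *Nrp2*, a receptor of semaphorins and VEGF (0.77). Their calls were lost without control 3, with adjusted p from 0.0501 for *Nrp2* to 0.133 for *Barx2*. Those of *Sfrp1*, *Barx2*, *Alcam*, *Adamts5* and *Nrp2* were also lost without control 2 (0.0614 to 0.0831), and those of *Sfrp1*, *Adamts5* and *Nrp2* without control 1 (0.051 to 0.0585). *Kremen2*, a receptor that damps Wnt signals, kept its call there. It had 14.7, 12.7 and 17.2 CPM in the controls and 45.9 CPM in the KO (1.63 ± 0.17, adjusted p = 0.00822), and *Cemip*, a hyaluronan-degrading protein, went from 5.36, 5.03 and 5.53 CPM to 20.1 CPM (1.93 ± 0.17). *Kremen2* and *Cemip* were chosen after their values were seen. Over the 16 other ways of processing the rise of *Nrp2* ranged from 0.23 to 1.32. In the controls *Sfrp1*, *Arhgdib*, *Alcam*, *Adamts5* and *Nrp2* were higher outside muscle spots than in them, and *Barx2* and *Paqr4* lower. Outside muscle the KO lay within the controls for *Sfrp1* (275 against 250, 310 and 219 CPM), *Alcam* and *Adamts5*. It lay above them for *Arhgdib*, *Barx2*, *Paqr4* and *Nrp2*. The part of other tissue in these rises was not tested.

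Of 7 macrophage markers 1 was called higher in KO muscle, and 6 were above all 3 controls, with a median of 0.71 and a sum of 116.0, 105.4 and 128.2 CPM against 177.4 CPM. *Csf1r*, the receptor on which macrophages depend, was the one called, with 13.97, 14.3 and 14.44 CPM in the controls and 27.9 CPM in the KO (0.97 ± 0.12, adjusted p = 0.0122, and 0.06 without control 3). Outside the list the complement gene *C1qb* had 27.8, 27.6 and 28.9 CPM against 52.995 CPM (0.92 ± 0.15, adjusted p = 0.0303), a call lost without control 1 (0.0572), 2 (0.0709) or 3 (0.106). *Tyrobp*, a signaling adaptor of myeloid cells, went from 12.7, 11.3 and 11.996 CPM to 26.1 CPM (1.13 ± 0.12, adjusted p = 0.00873), and *C3ar1*, a complement receptor, from 14.4, 12.3 and 14.6 CPM to 34.6 CPM (1.33 ± 0.14, adjusted p = 0.00822). *Tyrobp* and *C3ar1* were chosen after their values were seen, and both were called in all 16 other ways of processing. Of 5 epithelium markers 4 were above all 3 controls and 1 below, with a median of 1.34. The lung gene *Sftpc* was the member called higher (6.07), on 29 UMIs in the KO and at most 1 in any control. That call was lost without control 2 or 3. The higher genes of KO muscle therefore included genes of cell types other than muscle.

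*Magel2* and *Arhgap36*, of other lists, were lower. *Magel2*, an imprinted relative of *Ndn*, had 84.9, 77.0 and 80.0 CPM against 34.9 CPM (-1.21 ± 0.12, adjusted p = 0.00662), and *Ndn* was the other call among 20 imprinted genes. *Arhgap36*, of 8 early muscle genes of the study, went from 465, 317 and 377 CPM to 95.7 CPM (-2.01 ± 0.24, adjusted p = 0.012, and 0.0604 without control 3). Of 11 crural and positional genes *Meox2* was lower (-0.74, adjusted p = 0.0363), a call lost without control 3 (0.0968) or 2 (0.0614).

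Of 27 immediate early genes, which calcium and activity induce, 18 were below all controls with a median of -0.33, 2 were called lower and 1 higher. *Fos* had 4.01, 4.14 and 3.96 CPM in the controls and 1.71 CPM in the KO (-1.24, adjusted p = 0.0351), *Jund* differed by -0.88 (0.0448), and *Nr4a3* rose from 2.62, 2.11 and 2.26 CPM to 6.65 CPM (1.51, adjusted p = 0.0287). All 3 calls were lost without control 3 (0.101 to 0.105) and without control 2 (0.0709 to 0.0984), and that of *Fos* also without control 1 (0.0636). *Egr1* was above the controls without passing (1.30, adjusted p = 0.103). Over the 16 other ways of processing the rise of *Nr4a3* ranged from 0.33 to 2.08. No call was made among 19 genes of the unfolded protein response (median 0.06), 10 heat shock genes (0.21) or 28 Hox genes (0.02). Of 14 p53 targets 1 was higher, *Pmaip1*, a death-promoting BCL2 relative, with 13.9 CPM against 7.68, 4.92 and 5.46 CPM (1.21, adjusted p = 0.0481, 0.161 without control 3 and 0.0854 without control 2).

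Some called genes rest on few UMIs. *Thrsp*, a lipogenic regulator, had 2 UMIs in the KO against 135 in the 3 controls together, a ratio of 0.045 (exact 95% interval 0.0054 to 0.166), and *Asb12* had 2 against 85, a ratio of 0.071 (0.0085 to 0.266). Both calls were lost without control 3 (0.072 and 0.0672). *Yipf7*, a membrane protein of the secretory pathway, had 12 UMIs in the KO against 319, 315 and 122 in the controls (-4.38 ± 0.47, adjusted p = 0.00875). These intervals cover counting error only.

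The effect at E14.5 was set beside that at E18.5, where 1 CaV1.1 KO section was compared with 2 controls in the same fit and no section is shared between the stages. Of the 79 genes higher at E14.5, 66 (83.5%) were also above control at E18.5, as 7412 of all 14823 genes were, and of the 229 lower genes 206 (90.0%) were below, where 49.8% of all genes were. The median effect went from 0.97 to 0.78 for the higher and from -1.30 to -0.92 for the lower genes. These genes were chosen on their E14.5 effect. A smaller median at E18.5 and more differences between stages among them can follow from that choice alone. The 2 effects differed at an adjusted p under 0.05 for 949 genes (6.4%), 73 of them among the 308. This count is unstable, with 149 genes without control 2 and none without control 3, where no stage difference below is called.

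*Ckm* was 2.23 further below control at E14.5 than at E18.5 on the log2 scale, where its effect was -1.31. *Ache* (-1.55 at E14.5), *Ufsp1* (-1.33) and *Lrtm1* (-2.17) stood at 0.18, 0.54 and -0.16 at E18.5, so these synaptic genes were low at the earlier stage and near or above control at the later one. The reverse held for *Cacna1s*, at -0.30 and then -1.53, and *Myh7*, at -0.34 and then -2.09. *Myl2*, at -2.93 and -4.74, and *Ankrd2*, at -2.08 and -6.90, were far below control at both stages. *Myh4* was at -1.13 at E14.5 and 2.10 at E18.5, and *Fst* at 1.17 and then 2.40. The Z-disc list had medians of -0.84 and -1.33, endplate genes -0.14 and -0.03, and mitochondrial genes -0.15 and -0.95.

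**Figure D5:**
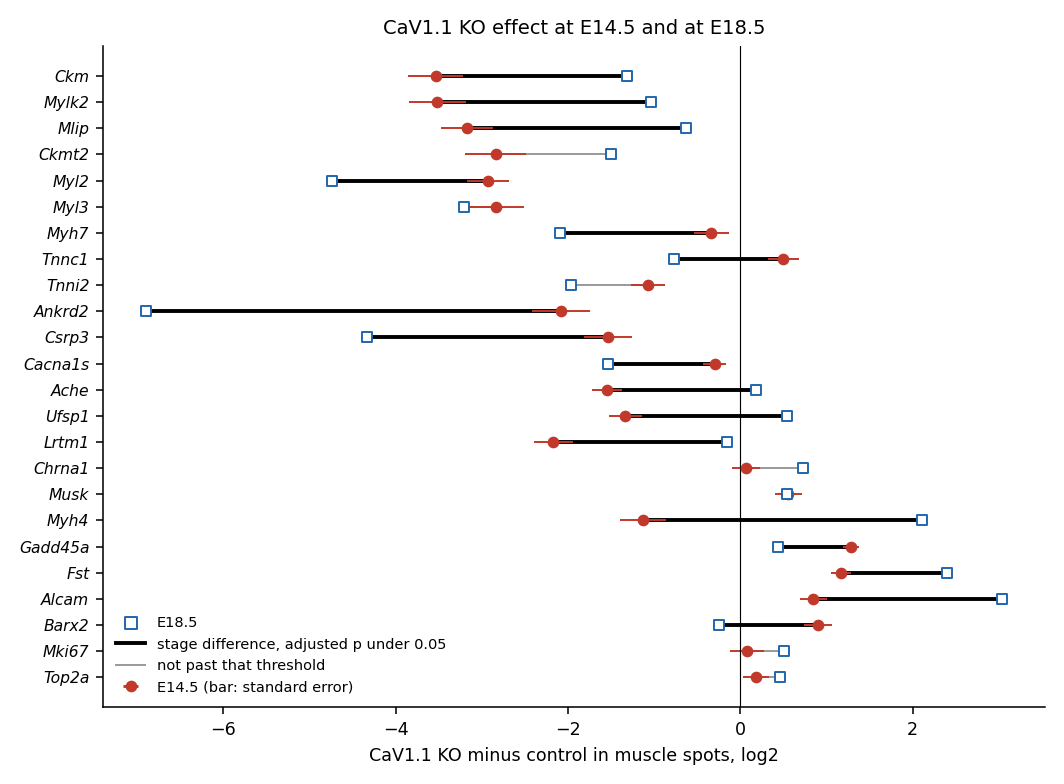
CaV1.1 KO minus control in muscle spots (x axis, log2) at E14.5 (red points, bars are standard errors) and at E18.5 (open squares) for 24 genes. Heavy lines join pairs whose difference between stages has an adjusted p under 0.05. *Ckm* moves from -3.54 to -1.31, *Myl2* from -2.93 to -4.74 and *Ache* from -1.55 to 0.18.

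The same genes were read in the spots of the 4 sections outside muscle. There the KO was above all 3 controls for 51 of the 79 higher genes (64.6%), where 33.2% of all genes were, and below for 182 of the 229 lower genes (79.5%), where 23.5% were. These spots hold some muscle, since the 9 muscle genes took 0.868%, 0.564% and 0.626% of their UMIs in the controls and 0.311% in the KO. In a fit of muscle and other spots together the KO effect differed between them for 0 of 14730 genes (0%) by edgeR, with 1486 at an unadjusted p under 0.05 and 35 called by DESeq2. Without control 1 the count was 297.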

How the data were processed

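The authors made the matrices with Space Ranger on mm10 (GRCm38) and the 10x mouse probe set v1.0 and deposited UMI counts of 19465 genes per spot under tissue, without normalization. Per the file headers the version was 2.0.0 for E14.5 controls 1 and 2 and the KO, and 2.0.1 for control 3 and the E18.5 sections. Part of the deposit are Moran's I scores per gene, which were not used. Images were not analysed here. Spot barcodes mark positions on the slide, and pairs of sections shared 211 to 642 of them. Counts of no pair agreed within sampling noise.

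Muscle UMIs were summed per section and tested with edgeR 4.0.16 in R 4.3.3 (filterByExpr, TMM, quasi-likelihood F test, calls at a Benjamini-Hochberg p under 0.05) in 1 fit of 8 sections in 5 groups with 3 residual degrees of freedom. The spot-wise test of the study was not used, since spots of a section are not replicates. The 9 muscle-spot genes got no test. The study describes the control sections of a stage as separate samples, and the p-values measure the spread between sections. Muscle spots had a median of 18115, 49950 and 22336 UMIs in controls 1, 2 and 3 and 20703 in the KO, and the biological coefficient of variation was 14.7%. The fit was first tested on simulated counts. Members, lists and tests were chosen with earlier results of these data known.

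Named are *Cacna1s*, the 9 muscle genes and the 10 most changed called genes per direction at 5 or more mean log2 CPM. These most changed genes also had to lie outside the 3 controls in the KO and off the marker lists of other tissue. Also named are up to 4 called and 2 other members per list, genes the study names, and called markers. The mean log2 CPM covered all sections of the fit, so genes scarce at E14.5 could pass on their E18.5 level. *Thrsp* passed at 5.655, with 2.28, 1.61 and 1.44 CPM in the E14.5 controls and 111 and 149 CPM in the E18.5 controls. Further members of lists that the report gives, such as *Myog*, *Casq1* and *Mstn*, were chosen after their values were seen. Alternatives were other scaling (upper quartile, RLE, the 9 genes), no filter (1 UMI), DESeq2 1.42.0, the 4 E14.5 sections alone, other spot choices, UMIs thinned to equal depth, and leaving out each control. Promoters and gene positions are from RefSeq tables of GRCm38.p6. Spot scores and counts used Python 3.11.15 with numpy 2.4.6, pandas 2.3.3, scipy 1.17.1 and skimage 0.26.0.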

Additional observations from a re-analysis of the deposited data

Results flagged for a closer look

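These genes had a KO effect that differed between E14.5 and E18.5 in the edgeR fit, given as the E14.5 effect minus the E18.5 effect on the log2 scale. Among contractile and Z-disc genes it was positive for *Myl2* (1.81), *Myh7* (1.75), *Myh3* (1.56), *Tnnc1* (1.26), *Ankrd2* (4.82), *Csrp3* (2.79) and *Fhl1* (2.08), and negative for *Mylk2* (-2.48), *Mlip* (-2.54) and *Myh4* (-3.23). *Ckm* stood at -2.23. It was negative for the endplate genes *Ache* (-1.73), *Ufsp1* (-1.87), *Lrtm1* (-2.01), *Chrne* (-3.99) and *Chrnd* (-1.35), the channels *Kcnc4* (-2.69) and *Kcnn2* (-2.27), and *Lama5* (-0.76). It was positive for *Cacna1s* (1.23), *Jph2* (1.08), *Thbs4* (1.45), *Map3k7cl* (2.15), *Csf1r* (0.76) and *Mstn* (1.71). Of genes higher at E14.5 it was positive for *Gadd45a* (0.84), *Barx2* (1.15) and *Paqr4* (0.98) and negative for *Fst* (-1.23) and *Alcam* (-2.19). The KO effect at each stage rests on 1 KO section, and the 949 calls of the whole comparison became 149 without E14.5 control 2 and 0 without control 3.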

How the results depend on the processing

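No paired analysis was possible because the KO group at E14.5 has a single section. Counts of genes called higher and lower (79 and 229) went to 4783 higher when scaled to the 9 muscle genes. They went to 154 and 382 with no filter and to 161 and 554 with DESeq2 (2013 adjusted p not given). With 1 Otsu cut for all sections of a stage they went to 126 and 349, and with the higher-scoring muscle spots to 123 higher. With only spots whose 6 neighbors are muscle spots they went to 37 and 131, and with only the largest piece of each section to 73 and 224, both chosen after seeing the data. Leaving out a control gave 12 to 53 higher and 53 to 213 lower genes. The stage count of 949 was 1572 with DESeq2 and 0 to 1099 without a control, and the tissue count of 0 was 30 with no filter, 35 with DESeq2 and 0 to 297 without a control. The cause was not tested. Upper-quartile and RLE scaling, the 4 E14.5 sections alone, all spots, a minimum of 5000 UMIs and thinned UMIs kept both counts within 1.5 times, and central enrichment (1.72) stayed within 1.66 to 1.74.

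With the 9-gene scaling the sign turned for *Cacna1s* (0.25), *Prkar1a* (0.24), *Myh7* (0.23), *Myh3* (0.28), *Tnni1* (0.33), *Tnnc2* (0.0038), *Tead4* (0.40), *Stac3* (0.38), *Jph2* (0.27), *Pax7* (0.30), *Chrnd* (0.28), *Chrng* (0.41) and *Chrnb1* (0.11). With 1 cut for all sections of a stage *Tead4* (0.012) and *Chrng* (0.027) turned, with all spots *Chrna1* (-0.27), *Myog* (-0.074), *Mstn* (-0.13) and *Tnnt1* (-0.29). *Tnnt1* also turned with upper quartile (-0.0051), RLE and DESeq2 (both -0.017) and the 4 sections (-0.00048). Without a control *Chrna1* ranged from -0.054 to 0.142 and *Tnnt1* from -0.077 to 0.182. None of these was called, and none of the 78 called genes of the 112 named turned under any alternative. Of the 308 called genes 5 higher and 36 lower ones were called under every alternative. Depth limits genes of a few UMIs, and 1 KO section gives no spread of its own.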
